A study of Mus musculus with 8 samples.

Results

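The insulin-like growth factor (IGF) system was followed here as 10 genes picked by name out of the 24421 genes in the files. These are the ligands Igf1 and Igf2, the receptors Igf1r and Igf2r, and the binding proteins Igfbp2 to Igfbp7. All 10 were found and all passed the filter on low values (1 group or more with a mean of 1 deposited CPM or above), which left 12348 genes to test. Poly-A RNA was sequenced from osteoblastic cells, the bone-forming precursors released by enzymes from the skull vault (calvaria) of newborn mice aged 0-3 d, on a C57BL/6 background. The cells came from WT mice or from Def6-/- mice, which carry a constitutive loss of the adaptor protein Def6 (KO in the plots). They were taken at day 0 of osteogenic culture, or at day 12 after growth with ascorbic acid and β-glycerophosphate. There were 2 libraries in each of the 4 groups. The study calls them biological replicates, but neither it nor the labels say how many animals were pooled for a culture, so the p-values measure the spread between these libraries. Because the cells were cultured unsorted as far as the labels state, fewer cells of a type and less RNA per cell cannot be told apart in any value below.

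As background, Igf1 and Igf2 act on cells by binding the tyrosine kinase receptor encoded by Igf1r, which signals through insulin receptor substrates, phosphatidylinositol 3-kinase and the MAP kinases. The protein of Igf2r, also known as the cation-independent mannose 6-phosphate receptor, instead takes Igf2 up for breakdown in lysosomes. IGF binding proteins hold the ligands outside the cell, extend their life and control how much reaches the receptor, and proteases release the ligand by cutting them. Bone matrix is a store of IGFs, and osteoblasts both secrete them and respond to them.

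Igf1, Igfbp3, Igfbp4 and Igfbp5 rose between day 0 and day 12 and Igf1r fell, in WT and in Def6-/- cultures alike. The 250 bases before the start site of the 3 binding protein genes that rose and of the receptor gene that fell are shown because these members carry the change with time. They were read from the RefSeq table for GRCm38.p6, the build that mm10 stands for, in which all 10 members had an entry. Each runs 5′ to 3′ and stops at the base before the start. Capitals mark the motifs searched for on both strands. The letters TATAAA were taken as a TATA box. A GC box was taken as GGGCGG. The CCAAT box is spelled by its name.
Igfbp3, chr11:7213924-7214173, minus strand: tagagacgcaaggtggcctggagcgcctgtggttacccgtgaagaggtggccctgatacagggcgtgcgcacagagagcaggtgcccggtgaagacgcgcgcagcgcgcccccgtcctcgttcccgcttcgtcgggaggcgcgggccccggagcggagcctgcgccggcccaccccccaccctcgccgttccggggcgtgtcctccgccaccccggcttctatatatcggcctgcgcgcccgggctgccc
Igfbp4, chr11:99040994-99041243, plus strand: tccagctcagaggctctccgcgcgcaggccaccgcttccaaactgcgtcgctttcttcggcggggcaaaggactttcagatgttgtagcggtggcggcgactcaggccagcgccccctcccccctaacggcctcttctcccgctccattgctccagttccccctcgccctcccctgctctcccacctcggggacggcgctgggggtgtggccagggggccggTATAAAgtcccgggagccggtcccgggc
Igfbp5, chr1:72874866-72875115, minus strand: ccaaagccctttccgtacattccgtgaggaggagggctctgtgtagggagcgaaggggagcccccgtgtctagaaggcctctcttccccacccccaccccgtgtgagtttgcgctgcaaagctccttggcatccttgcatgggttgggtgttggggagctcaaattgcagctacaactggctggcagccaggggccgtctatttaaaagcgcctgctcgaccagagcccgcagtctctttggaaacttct
Igf1r, chr7:67952007-67952256, plus strand: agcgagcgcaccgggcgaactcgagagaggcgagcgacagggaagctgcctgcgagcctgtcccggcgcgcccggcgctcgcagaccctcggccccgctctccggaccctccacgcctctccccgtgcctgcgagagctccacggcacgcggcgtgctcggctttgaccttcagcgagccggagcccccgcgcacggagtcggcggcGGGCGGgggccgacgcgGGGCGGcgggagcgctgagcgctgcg
Of the 32851 promoter windows of this length in the table, 12.4% hold TATAAA, 32.7% GGGCGG and 33.8% CCAAT. Among the 3 genes that rose, the Igfbp4 window holds TATAAA beginning 28 bases before the start, whereas the Igfbp3 and Igfbp5 windows hold none of the 3 motifs. The Igf1r window has GGGCGG at 43 and at 26 bases before the start and is 77.6% G and C, against a median of 52.4% over all windows. The E-box letters CANNTG, which overlap none of the capitals, occur once in each of the Igfbp3, Igfbp4 and Igfbp5 windows, not in that of Igf1r, and in 66.2% of all windows. Such matches describe letters only. The last 19 bases of the Igfbp5 window lie within an annotated exon. The Igf1r window ends at 67952256 by its RefSeq start, whereas the GENCODE M21 annotation used below starts this gene further on, at 67952827. The Igf1 window is not shown because all 250 of its bases lie within annotated exons.

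The members are spread over 7 chromosomes of GRCm38 in the GENCODE M21 annotation. Igf2 lies on chromosome 7 from 142650766 to 142666816 and Igf1r on the same chromosome from 67952827 to 68233668. Igf1 is on chromosome 10 (87858265 to 87937042) and Igf2r on chromosome 17 (12682406 to 12769664), which also carries Def6. Igfbp2 (72824503 to 72852474) and Igfbp5 (72857932 to 72874884) are neighbours on chromosome 1 that point toward each other with 5457 bases between them. Igfbp3 and Igfbp4 share chromosome 11, Igfbp6 is on chromosome 15 and Igfbp7 on chromosome 5. The strand setting of the counting is not given in the sources used here, so reads of Igf2 and Igf2os, of Igf2r and Airn, and of Igfbp7 and Polr2b cannot be told apart where these genes of opposite strands overlap. Mir483 lies inside Igf2.

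Between 2414856 and 3482837 reads per library lay on genes, which was 28.8% to 35.3% of all reads. Values below are normalized CPM, meaning deposited CPM set relative to the reads on genes, scaled with TMM factors. The Def6 labels fit its reads, with 112 to 186 in the WT libraries and 0 to 2 in the Def6-/- libraries. WT day 0 replicate 1 stood apart. Its correlation with the other day 0 libraries across tested genes was 0.927 to 0.951, compared with 0.9746 to 0.984 among those 3 libraries. Its difference from replicate 2 moved with gene length, with a median on the log2 scale of 0.58 in the 2983 genes of at most 2922 exon bases and -0.48 in the 2981 genes of at least 7014, while in the other 3 groups these medians ran from -0.07 to 0.07. Among the members, log2 differences of replicate 1 minus replicate 2 at WT day 0 were 2.01 for Igfbp7 (1209 exon bases), but -1.71 for Igfbp5 (6006), -1.24 for Igf2r (9308), -0.72 for Igf1 (9904) and -0.58 for Igf1r (16791). The short Igfbp6 (1112) was at 0.19, and Igfbp3 and Igfbp4 at -0.15 and -0.048. Members also differed between the replicates of Def6-/- day 0, where the medians by length lay between -0.07 and 0.07. There Igf1 was at -1.17, Igfbp7 at 0.83, Igfbp3 at -0.83 and Igfbp5 at -0.53. Values without WT day 0 replicate 1 are given for the members' changes in WT cells because it stood apart. The lone WT day 0 library was then taken to vary like the other groups. In such a fit the difference within WT day 0 no longer enters the shared spread, which changes p-values in the other groups too, whichever of its libraries is left out. The part of the length effect in the members' levels was not tested.

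**Figure D1:**
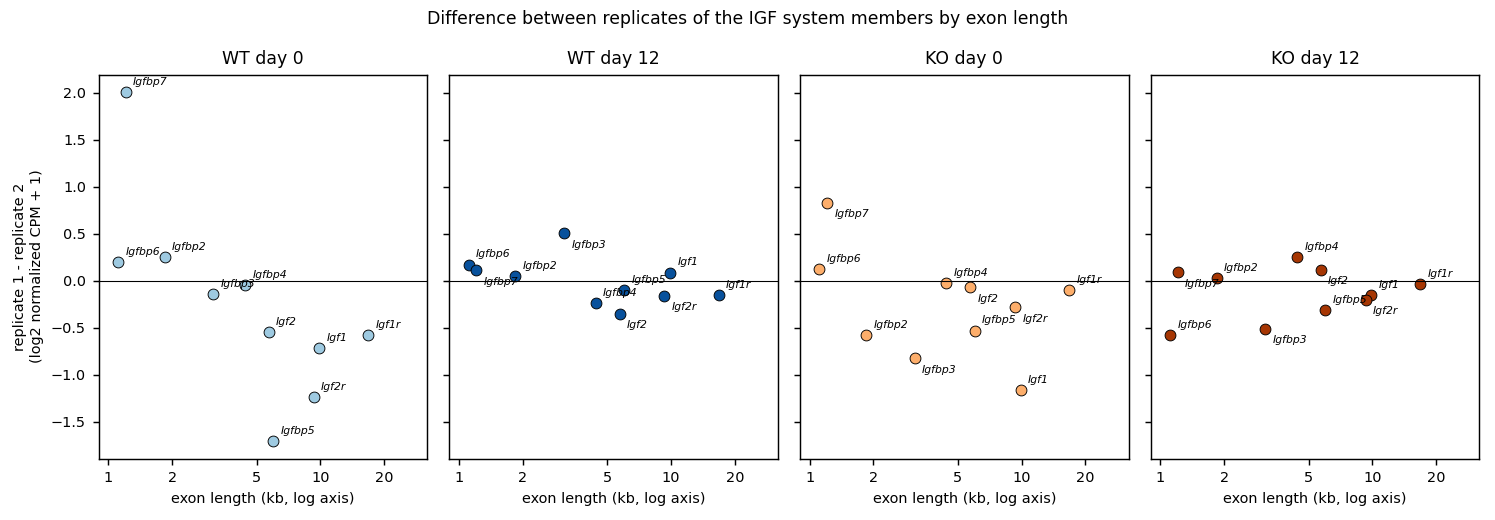
Replicate 1 minus replicate 2 of each member, as a difference of log2(normalized CPM + 1) on the vertical axis, against the summed exon length in kb on a log axis, with 1 panel per group. At WT day 0 the short Igfbp7 lies at 2.01 and the long Igfbp5 at -1.71, while at WT day 12 all 10 members lie between -0.35 and 0.51.

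Of the ligands, Igf1 rose with differentiation while Igf2 did not pass the test. In WT cells Igf1 was at 80.5 and 133 normalized CPM at day 0 and at 508 and 479 at day 12. In Def6-/- cells it was at 68.1 and 154 at day 0 and at 459 and 511 at day 12. Every day 12 library was thus above every day 0 library, and replicates differed more at day 0 than at day 12. The change was 4.73-fold in WT cells (95% interval 2.67 to 8.38, limma adjusted p = 0.00354) and 4.68-fold in Def6-/- cells (2.64 to 8.29, adjusted p = 0.00365). A fold here is a ratio of normalized CPM + 1, which understates changes of genes with few reads. Without WT day 0 replicate 1 the log2 change of Igf1 in WT cells was 1.88 in place of 2.24. Igf2 was the more abundant ligand throughout, at 1644 and 2406 normalized CPM in WT day 0, 1958 and 2497 in WT day 12, 2053 and 2152 in Def6-/- day 0, and 2346 and 2166 in Def6-/- day 12 libraries. WT libraries of the 2 days overlapped. Its log2 change with time was 0.15 (95% interval -0.39 to 0.70) in WT cells and 0.10 (-0.44 to 0.64) in Def6-/- cells. As a fold the WT interval runs from 0.763 to 1.62.

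Of the receptors, Igf1r fell. It was at 193 and 289 normalized CPM in WT cells at day 0 and at 74.9 and 83.3 at day 12. In Def6-/- cells it went from 275 and 295 to 82.1 and 84.1. No day 12 library reached a day 0 library, and the 4 day 12 values lay close together. The log2 change was -1.57 (standard error 0.21, adjusted p = 0.00142) in WT and -1.77 (0.21, adjusted p = 0.000819) in Def6-/- cells. The WT value was -1.86 without WT day 0 replicate 1. For Igf2r, the scavenging receptor, the day 0 values of WT cells were 270 and 639 normalized CPM, whereas the day 12 values were 247 and 276. In Def6-/- cells Igf2r was at 511 and 622 at day 0 and at 247 and 284 at day 12. Apart from WT day 0 replicate 1, all day 0 libraries were thus above all day 12 libraries. The test was not passed in WT cells (log2 change -0.67, 95% interval -1.45 to 0.12, adjusted p = 0.218) or in Def6-/- cells (-1.09, -1.87 to -0.31, adjusted p = 0.0635). The WT value turned on the library left out: it was -1.29 without WT day 0 replicate 1 and -0.048 without replicate 2. The Def6-/- value of -1.09 does not use the WT day 0 libraries and was the same in both of these fits.

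Of the binding proteins, Igfbp3, Igfbp4 and Igfbp5 rose in both genotypes. Igfbp3 encodes the chief IGF carrier of the circulation. It was at 21.3 and 23.7 normalized CPM in WT day 0 libraries and at 260 and 183 in WT day 12 libraries. The Def6-/- values were 29.0 and 52.1 at day 0, then 259 and 371 at day 12. Day 12 values lay above all day 0 values, with log2 changes of 3.22 (standard error 0.31, adjusted p = 0.000276) in WT and 2.96 (0.31, adjusted p = 0.000425) in Def6-/- cells. The WT value was 3.15 without WT day 0 replicate 1. Igfbp4, whose product restrains IGF action until the protease Pappa cuts it, was at 1660 and 1716 normalized CPM in WT cells at day 0 and at 4573 and 5383 at day 12. In Def6-/- cells the same gene went from 1425 and 1449 to 5452 and 4577. These were folds of 2.94 (95% interval 2.13 to 4.06, adjusted p = 0.00126) and 3.47 (2.52 to 4.79, adjusted p = 0.000668). On the log2 scale the WT change was 1.56, and 1.53 without WT day 0 replicate 1. Igfbp5 encodes a binding protein that is abundant in bone matrix. Its WT values were 107 and 353 normalized CPM at day 0 and 1434 and 1539 at day 12. Its Def6-/- values were 245 and 354 at day 0 and 1696 and 2112 at day 12. The groups of the 2 days did not overlap, although the day 0 value of WT replicate 1 was far below the other 3. The log2 change was 2.92 (standard error 0.46, adjusted p = 0.00313) in WT and 2.68 (0.46, adjusted p = 0.00471) in Def6-/- cells. Without WT day 0 replicate 1 the WT change was 2.07, and without Def6-/- day 0 replicate 1 the Def6-/- call was lost at 2.41.

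Igfbp2, Igfbp6 and Igfbp7 did not pass the test with time. Igfbp2 was at 3431 and 2884 normalized CPM in WT day 0, 2991 and 2887 in WT day 12, 1717 and 2572 in Def6-/- day 0, and 2451 and 2404 in Def6-/- day 12 libraries. Its log2 change was -0.10 (95% interval -0.64 to 0.45) in WT and 0.21 (-0.34 to 0.75) in Def6-/- cells. Igfbp6, which prefers Igf2 over Igf1, had between 92 and 186 reads per library. Its values were 42.6 and 37.1 in WT day 0, 53.4 and 47.3 in WT day 12, 34.6 and 31.7 in Def6-/- day 0, and 40.2 and 60.6 in Def6-/- day 12 libraries. Day 12 was above day 0 within each genotype, but the log2 changes of 0.33 (adjusted p = 0.378) and 0.56 (adjusted p = 0.151) were not called. Without WT day 0 replicate 1 the WT change of Igfbp6 was 0.43. Igfbp7, whose protein binds IGFs more weakly than the others, was at 802 and 199 in WT day 0, 186 and 172 in WT day 12, 419 and 235 in Def6-/- day 0, and 224 and 210 in Def6-/- day 12 libraries. All day 12 values of a genotype were below its day 0 values. The log2 changes were -1.16 in WT (95% interval -2.39 to 0.07) and -0.53 in Def6-/- cells (-1.76 to 0.70), and without WT day 0 replicate 1 that in WT cells was -0.15. Without replicate 2 instead it was -2.16, with the library that stood apart as the only one of its group. DESeq2 on recovered reads called the WT change with all libraries at -1.48 (adjusted p = 0.0115).

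**Figure D2:**
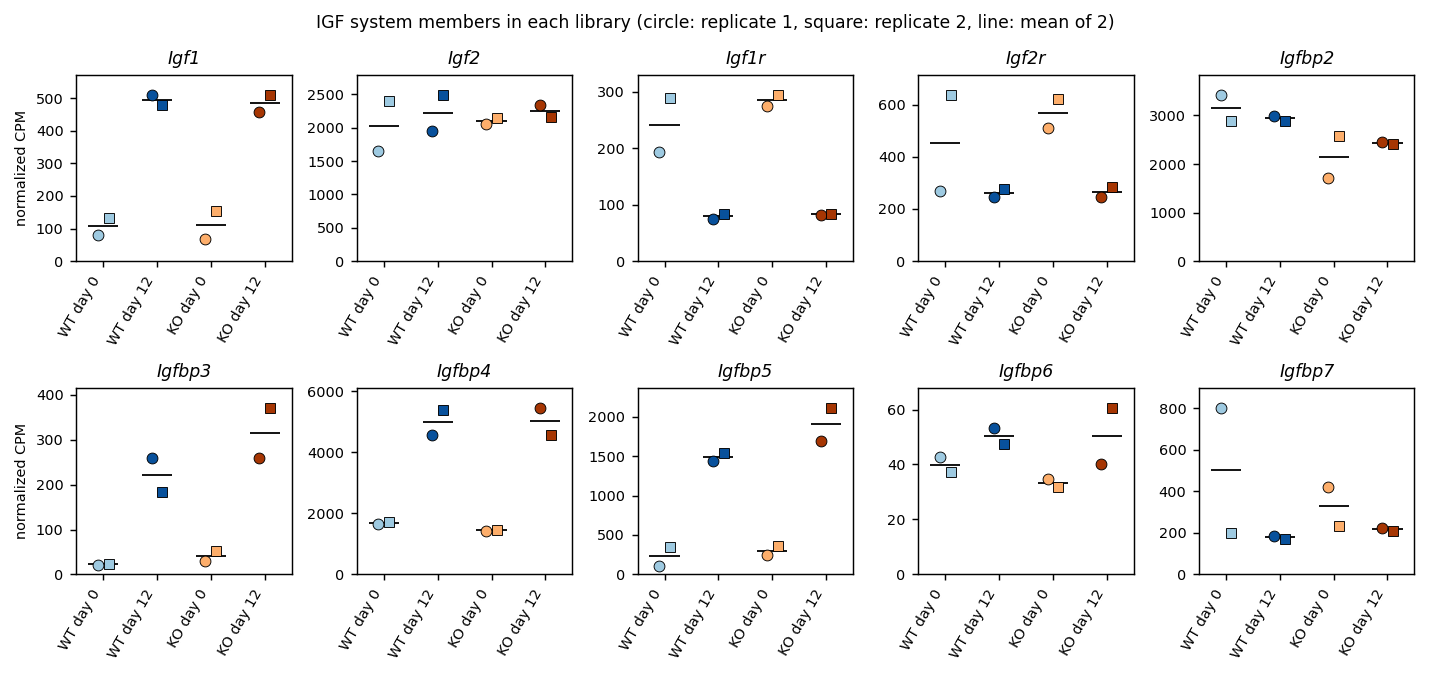
Normalized CPM of the 10 members on linear axes from 0, with a circle for replicate 1, a square for replicate 2 and a line at the mean of the 2 libraries, for WT and Def6-/- (KO) cells at day 0 and day 12. Igf1, Igfbp3, Igfbp4 and Igfbp5 are higher and Igf1r lower in all day 12 libraries, and Igfbp7 shows the wide gap at WT day 0 between 802 and 199.

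In all, 4 of the 10 members were called higher and 1 lower at day 12 in WT cells, at a limma adjusted p under 0.05, where 12.7% of all genes tested were called higher and 5.64% lower. The Def6-/- cells gave 4 higher and 1 lower, the same 5 genes, beside 12% and 4.79% of all genes. The median log2 change of the 10 members was 0.24 in WT and 0.39 in Def6-/- cells, compared with -0.0015 and 0.0090 over all genes tested.

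**Figure D3:**
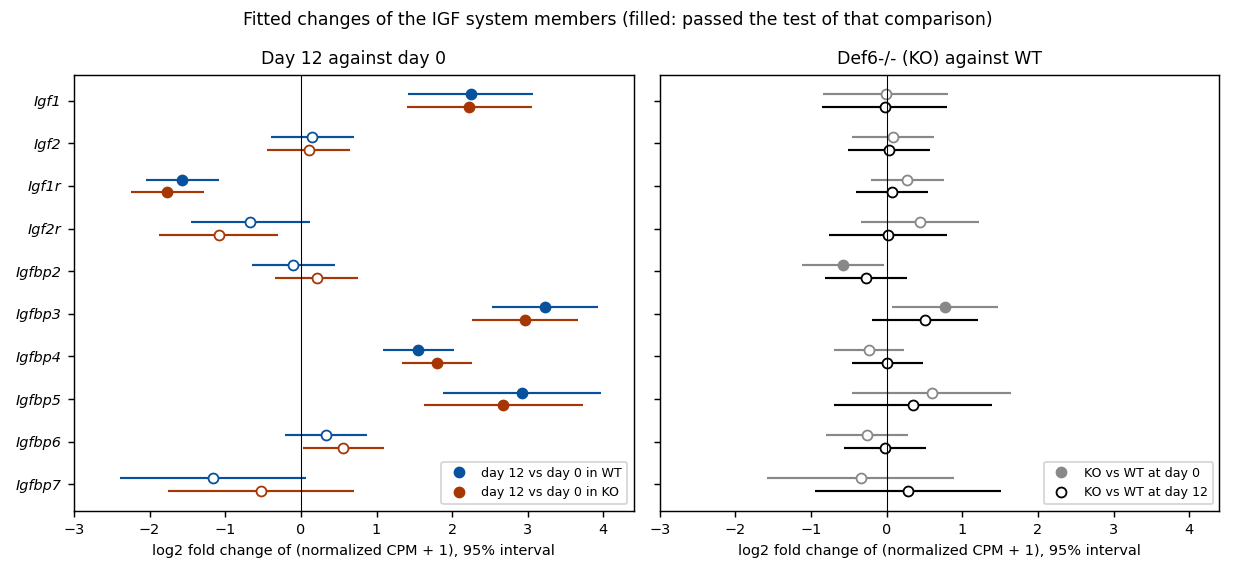
Fitted log2 fold changes of normalized CPM + 1 with 95% intervals for the 10 members, day 12 against day 0 on the left and Def6-/- (KO) against WT on the right; filled points passed the test of that comparison. Intervals of Igf1, Igf1r, Igfbp3, Igfbp4 and Igfbp5 leave out 0 with time in both genotypes, while with genotype the filled points are Igfbp2 at -0.58 and Igfbp3 at 0.77, both at day 0.

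To compare members with each other, normalized CPM were divided by the summed exon length in kb. On this scale Igfbp2 was the highest member in every group, with means of 1710 ± 210 (SD, n = 2) CPM per kb at WT day 0 and 1591 ± 39.7 at WT day 12. At day 12 the order below it in WT cells was Igfbp4 (1127), Igf2 (389), Igfbp5 (247), Igfbp7 (148), Igfbp3 (70.8), Igf1 (49.9), Igfbp6 (45.3), Igf2r (28.1) and Igf1r (4.71), with no overlap between the libraries of neighbours. In Def6-/- cells the day 12 order was the same, except that Igf1 and Igfbp6 overlapped. At day 0 Igfbp7, Igfbp4 and Igf2 could not be ordered in WT cells, nor could Igf2r, Igfbp5 and Igfbp6, or Igf1r and Igf1. Among Def6-/- day 0 libraries the overlapping neighbours were Igfbp4 and Igfbp7, Igf2r and Igfbp5, and the run of Igf1r, Igfbp3 and Igf1. At day 12 the receptor gene Igf1r stood at 4.46 to 5.01 and the ligand gene Igf2 at 342 to 436 CPM per kb over the 4 libraries.

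The make-up of the family moved with time. Igfbp2 made up 62.8% and 70.5% of the summed CPM per kb of the 6 binding proteins in WT day 0 libraries and 50.9% and 47.6% at day 12, and in Def6-/- cells 55.3% and 69.0%, then 42.2% and 42.9%. Igfbp4 went from between 12.7% and 19.2% over the 4 day 0 libraries to between 32.6% and 39.2% at day 12. Over the same libraries Igfbp5 went from between 0.604% and 2.92% to between 7.51% and 11.6%. Igfbp7 was at 22.4% in WT day 0 replicate 1 and 20.6% in Def6-/- day 0 replicate 1, and between 4.33% and 9.63% in the other 6 libraries. Igf1 was 1.88% to 3.98% of the summed CPM per kb of the 2 ligands at day 0 and 9.98% to 13.0% at day 12. Binding proteins exceeded ligands in all 8 libraries. The ratio of their sums was 10.0 and 5.10 in WT day 0, 8.08 and 6.77 in WT day 12, 4.60 and 5.16 in Def6-/- day 0, and 6.90 and 7.06 in Def6-/- day 12 libraries, and the WT libraries of the 2 days overlapped. These shares were not tested. They are shares of RNA, not of protein.

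**Figure D4:**
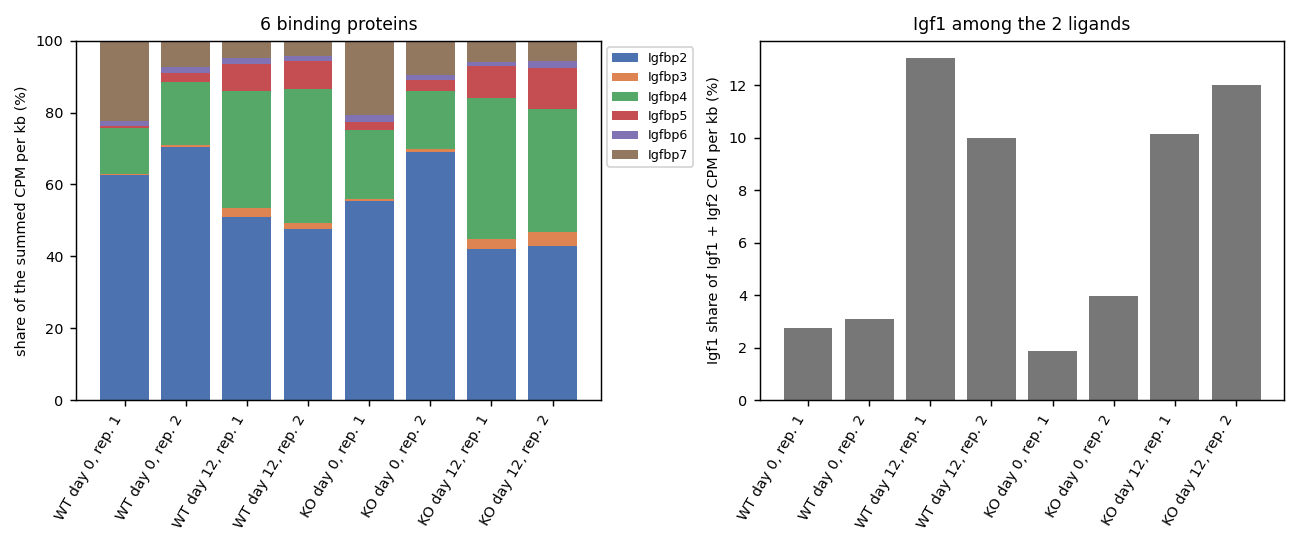
Left, stacked bars of the share in percent that each of the 6 binding proteins takes of their summed CPM per kb, 1 bar per library; right, the share of Igf1 in the summed CPM per kb of Igf1 and Igf2. Igfbp4 and Igfbp5 widen and Igfbp2 narrows at day 12, and Igf1 rises from at most 3.98% to at least 9.98%.

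Def6 loss was compared with WT at each day, at the rule the study used (unadjusted p under 0.05 and more than 1.2-fold). At day 12 none of the 10 members was called by limma, where 0.81% of all genes tested were called higher and 0.591% lower in Def6-/- cells. Higher calls were 57.8% of these calls, and 70.0% when CPM were used as deposited. All 10 members also had an unadjusted p of 0.05 or more with limma, and 0 were called by edgeR or DESeq2 on recovered reads. The highest member was Igfbp3 at a log2 difference of 0.51 (95% interval -0.20 to 1.21), where the libraries overlapped at 260 and 183 in WT and 259 and 371 in Def6-/- cells. Igfbp5 (0.35, -0.70 to 1.40) and Igfbp7 (0.28, -0.95 to 1.51) were higher in both Def6-/- libraries than in both WT libraries, and Igfbp2 (-0.28, -0.82 to 0.27) was lower in both. With 2 libraries against 2, at either day, the smallest two-sided exact permutation p is 0.333. Such a separation alone therefore cannot show a difference. For Igf1 (-0.03, -0.85 to 0.80) the interval runs from 0.554-fold to 1.74-fold, and for Igf2 (0.03, -0.52 to 0.57) from 0.699-fold to 1.49-fold. When the 4 day 12 libraries alone were fitted, Igfbp3, Igfbp5 and Igfbp7 were called higher by limma, each with an adjusted p of 0.995. That fit called 293 of all 12348 genes tested higher, in place of 100.

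At day 0, Igfbp3 was higher in Def6-/- cells by a log2 difference of 0.77 (95% interval 0.064 to 1.47) and Igfbp2 was lower, at -0.58 (-1.13 to -0.038). Both were called by the study's rule, and both had a limma adjusted p of 0.908. In the same comparison 0.988% of all genes were called higher and 1.31% lower. Higher calls were 43.0% of the calls, but 72.3% with CPM as deposited, 32.3% with edgeR and 16.5% with DESeq2. Both Def6-/- values of Igfbp3 were above both WT values and both of Igfbp2 were below, but replicates of Def6-/- cells differed by 0.83 for Igfbp3 and by 0.58 for Igfbp2 on the log2 scale, close to the differences themselves. The call of Igfbp2 was kept in only 2 of the 8 fits that leave out a library. The fit without WT day 0 replicate 2 left the library that stood apart alone in its group, so its call adds no support. The other was the fit without Def6-/- day 0 replicate 2. Igfbp2 was at -0.29 without Def6-/- day 0 replicate 1 and at -0.46 without WT day 0 replicate 1, and not called in either fit. Without the latter, Igfbp7 was called, higher by 0.66 (adjusted p = 0.976), where with all libraries it was at -0.35. Igfbp3 was no longer called without Def6-/- day 0 replicate 2 (0.35). The other 8 members had no unadjusted p under 0.05 with all libraries. With WT day 0 replicate 2 left out instead, the library that stood apart was the only one of its group. The members' differences then ran from -1.35 for Igfbp7 to 1.45 for Igfbp5.

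The time course itself was compared between genotypes by an interaction term, the change in Def6-/- minus that in WT cells. No member was called, where 0.705% of all genes were called with a higher and 0.421% with a lower change in Def6-/- cells, and no member had an unadjusted limma p under 0.05. The fitted interactions ran from -0.42 for Igf2r to 0.63 for Igfbp7. That of Igf1 was -0.02 with a 95% interval of -1.18 to 1.15, or 0.441 to 2.22 as a fold. Without WT day 0 replicate 1 the interaction of Igfbp5 turned from -0.25 to 0.61 and was called (adjusted p = 0.978). The comparisons of time, genotype and their interaction share libraries with each other. With WT day 0 replicate 2 left out, WT day 0 was the library that stood apart. The interactions then ran from -1.10 for Igfbp5 to 1.63 for Igfbp7.

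Genes that act around the members were taken from 5 lists. The list of carriers, proteases and uptake receptors of the binding proteins had 18 tested genes of 25, of which 5 were called higher and 3 lower with time in WT and 3 and 3 in Def6-/- cells, beside 12.7% and 5.64% of all genes in WT and 12% and 4.79% in Def6-/- cells. As shares of the tested genes these were 27.8% and 16.7% in WT and 16.7% and 16.7% in Def6-/- cells. Htra3, a secreted serine protease, rose from 11.8 and 9.54 to 147 and 148 normalized CPM in WT and from 13.9 and 8.86 to 146 and 163 in Def6-/- cells (log2 change 3.67 and 3.68). Htra1, a related protease known to cut Igfbp5, rose by 1.99 in WT and 2.04 in Def6-/- cells, with adjusted p of 0.000142 and 0.000133. Igfals encodes the acid-labile subunit that joins ligand and Igfbp3 in the circulation. Its reads were 0 and 0 in WT day 0, 30 and 18 in WT day 12, 1 and 0 in Def6-/- day 0, and 14 and 20 in Def6-/- day 12 libraries, and it was called higher in both genotypes, with no fold given against such low counts. Lrp2 (megalin) fell by 3.11 and 3.14 on the log2 scale in WT and Def6-/- cells. Pappa, the Igfbp4 protease, was at 144 and 373 in WT day 0, 127 and 126 in WT day 12, 322 and 337 in Def6-/- day 0, and 102 and 111 in Def6-/- day 12 libraries. It fell in Def6-/- cells (-1.62, adjusted p = 0.0159), whereas the WT value of -0.87 was not called (adjusted p = 0.134), and the low day 0 value was again WT replicate 1. Pappa2 at 1.02 in WT and 0.54 in Def6-/- cells did not pass. Between genotypes, Stc2, an inhibitor of Pappa, was higher in Def6-/- cells at day 12 (1.21, adjusted p = 1) on 25 and 12 reads against 11 and 5, and Adam12 was higher at day 0 (0.59, adjusted p = 0.908). The median log2 change of this list was 0.22 in WT and 0.33 in Def6-/- cells. Fitted alone, the WT groups gave 4 calls with time in this list in place of 8, and 1093 over all genes tested in place of 2261. The Def6-/- groups fitted alone gave 10 in place of 6, and 3913 over all genes in place of 2075. The number called in Def6-/- cells also rose when either WT day 0 library was left out, as it did over all genes.

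Genes that carry the signal from the receptor numbered 41 tested of 42, and 6 were called higher and 3 lower in WT and 5 and 1 in Def6-/- cells. These are 14.6% and 7.32% of the tested genes in WT and 12.2% and 2.44% in Def6-/- cells, where 12.7% and 5.64% of all genes were called in WT and 12% and 4.79% in Def6-/- cells. Such shares are near those of all genes and are no result about the list. Several encode regulatory subunits of phosphatidylinositol 3-kinase. Pik3r3 rose by a log2 change of 1.21 in WT and 1.04 in Def6-/- cells, and Pik3r2 by 0.67 and 0.60. Pik3r1 (1.33, adjusted p = 0.0189) and Irs1 (1.47, adjusted p = 0.0480), the insulin receptor substrate, passed in WT cells, and in Def6-/- cells had values of 1.02 (adjusted p = 0.0556) and 1.13 (adjusted p = 0.122). Their WT values rested on the day 0 library: Pik3r1 was at 0.79 without WT day 0 replicate 1 and 1.87 without replicate 2, and Irs1 at 0.68 and 2.26, with its call kept in 5 of 16 alternatives. Hras (-1.35) and Nras (-0.76) passed in WT cells. Hras was at -0.68 without WT day 0 replicate 1 and at -2.01 without replicate 2, and the calls were kept in 9 and 8 of 16 alternatives. In Def6-/- cells the catalytic subunit gene Pik3cb fell (-1.15) and the adaptor Grb14 rose (0.79). The list's median log2 change was -0.0013 in WT and -0.09 in Def6-/- cells, near that of all genes. With the Def6-/- groups fitted alone, 22 genes of this list were called with time in place of 6. That fit called 3913 of all genes tested in place of 2075. With the WT groups fitted alone, 0 were called in place of 9, and 1093 of all genes in place of 2261. In both genotypes the number called rose when either WT day 0 library was left out, as it did over all genes tested. With genotype, Sh2b2, an adaptor, was called higher in Def6-/- cells at day 0 (0.90, adjusted p = 0.908) on 19 and 14 reads against 5 and 10, and no gene of the list was called at day 12.

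Regulators of Igf messenger RNA were the list with members called in a single direction. Of 8 tested genes of 10, 5 were called lower in WT (62.5%, beside 5.64% of all genes) and 4 in Def6-/- cells (50%, beside 4.79%), and none higher (12.7% and 12% of all genes). With the WT groups fitted alone, 2 were called in WT cells, and 3 with DESeq2 or with CPM as deposited. Over all genes tested these fits called 1093, 2102 and 1894, in place of 2261. The genes for the 3 Igf2 messenger RNA binding proteins, best known from fetal tissue and tumours, passed as lower in both genotypes, although the WT call of Igf2bp3 was kept in only 4 of 16 alternatives. Igf2bp2 was at 58.8 and 67.5 normalized CPM in WT day 0, 14.9 and 22.6 in WT day 12, 73.0 and 61.7 in Def6-/- day 0, and 20.1 and 25.2 in Def6-/- day 12 libraries. Its log2 change was -1.72 in WT and -1.53 in Def6-/- cells, beside -1.19 and -1.28 for Igf2bp1 and -0.81 and -1.01 for Igf2bp3. Hmga2, a chromatin protein that acts on Igf2bp2, had log2 changes of -2.39 and -3.04. The median log2 change of the list was -0.72 in WT and -1.15 in Def6-/- cells. Igf2 itself, given above, did not pass with time in either genotype.

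Imprinted growth genes, the class to which Igf2 and Igf2r belong, had 16 tested genes of 20. In WT cells 2 were called higher and 1 lower (12.5% and 6.25%, beside 12.7% and 5.64% of all genes), and in Def6-/- cells 4 and 1 (25% and 6.25%, beside 12% and 4.79%). The WT shares are near those of all genes. Cdkn1c, a cell cycle inhibitor, rose by a log2 change of 3.03 in WT and 3.49 in Def6-/- cells, and Mest by 1.96 and 2.16. Peg10 fell by 1.56 and 1.18 on the log2 scale. H19, the non-coding neighbour that shares enhancers with Igf2, was at 2326 and 2172 normalized CPM in WT day 0, 3290 and 3731 in WT day 12, 2316 and 2067 in Def6-/- day 0, and 3466 and 3521 in Def6-/- day 12 libraries. It passed in Def6-/- cells (0.67, adjusted p = 0.0482) and not in WT cells (0.64, adjusted p = 0.0547), with all day 12 libraries above all day 0 libraries. The interaction was 0.03 and was not called. The number of genes of the list called with time in WT cells rose when either WT day 0 library was left out, as it did over all genes tested.

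Of the transcription factors and hormone receptors known to act on IGF genes in osteoblasts, 15 of 16 were tested, with 2 higher and 2 lower in WT (13.3% each, beside 12.7% and 5.64% of all genes) and 2 higher and 1 lower in Def6-/- cells (13.3% and 6.67%, beside 12% and 4.79%). The higher shares are near those of all genes. Cebpa, of the C/EBP family that controls Igf1, rose from 33.1 and 30.0 to 166 and 142 normalized CPM in WT and from 30.9 and 29.3 to 167 and 132 in Def6-/- cells (log2 change 2.25 and 2.26). It is also among the adipocyte markers below. Cebpb and Cebpd of this family were not called with time. In WT cells Cebpb went from 191 and 100 to 106 and 87.1, and Cebpd from 117 and 57.6 to 63.7 and 53.2. In Def6-/- cells Cebpb went from 110 and 87.6 to 86.6 and 76.4, and Cebpd from 54.2 and 69.5 to 57.1 and 52.9. Pth1r, the parathyroid hormone receptor, whose signal induces Igf1 in osteoblasts, rose by 1.97 and 2.57. Trp53 fell by 0.73 and 0.62 on the log2 scale, and Atf4 fell by 1.19 in WT cells. The growth hormone receptor gene Ghr had values of 0.60 (adjusted p = 0.0750) and 0.58 (adjusted p = 0.0891) and Runx2 of 0.44 and 0.43, none of which passed. None of these 15 genes was called between genotypes. With the Def6-/- groups fitted alone, 8 were called with time in place of 3, and 3913 over all genes tested in place of 2075. With the WT groups fitted alone, 2 were called in place of 4, and 1093 over all genes in place of 2261. In both genotypes the number called rose when either WT day 0 library was left out, as it did over all genes.

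**Figure D5:**
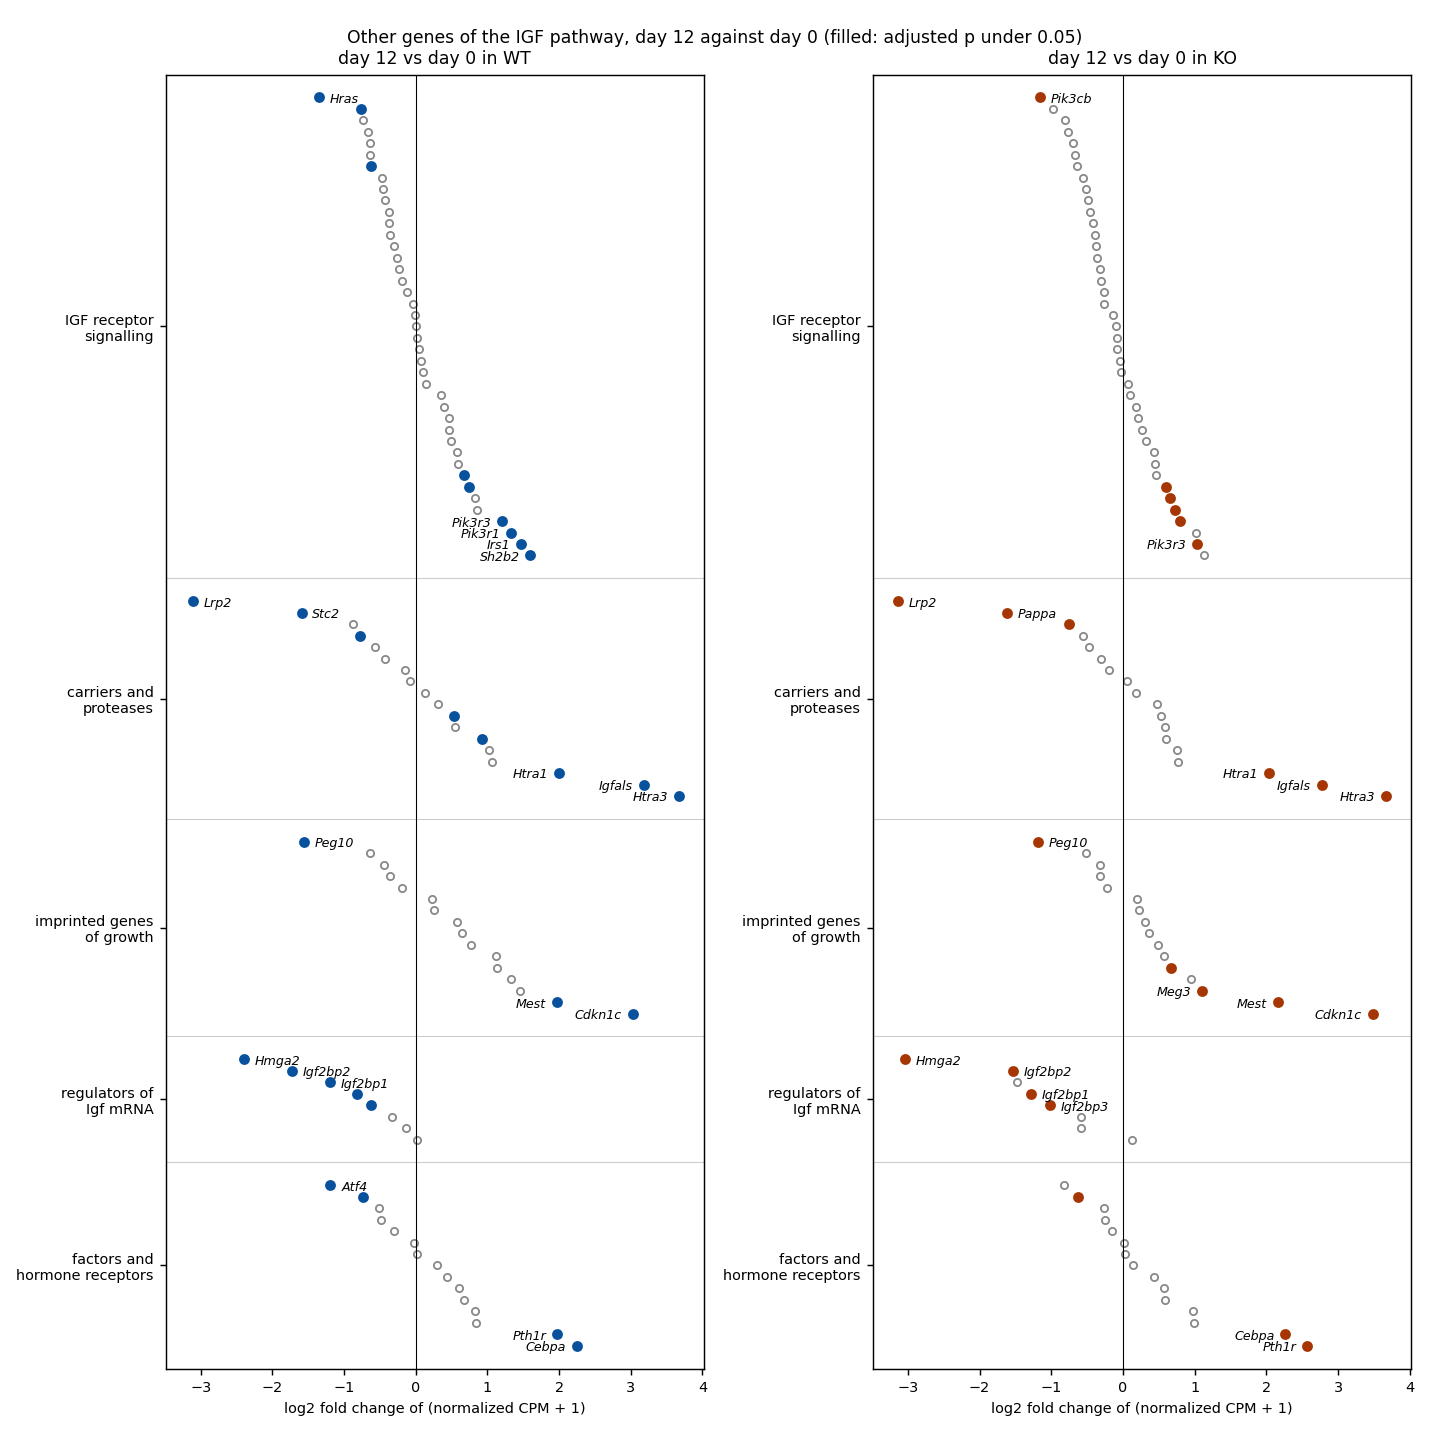
Log2 fold change of normalized CPM + 1, day 12 against day 0, for the tested genes of the 5 lists in WT (left) and Def6-/- (KO, right) cells, sorted within each list; filled points had a limma adjusted p under 0.05 and are named where the log2 change was beyond 1 in either direction. Htra3 lies furthest to the right in both panels at 3.67 and 3.68, and the regulators of Igf messenger RNA have filled points on the left side alone.

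Markers of other cell types moved with time. Of all genes tested, 12.7% were called higher and 5.64% lower at day 12 in WT cells, and 12% and 4.79% in Def6-/- cells. Of 15 tested macrophage markers of 16, 14 rose in each genotype, and the summed level of all 16 went from 218 to 460 normalized CPM at day 0 to 3529 to 6921 at day 12. Of the 16, 1 was at 0 in each Def6-/- day 0 library and none in the other 6 libraries. Macrophages are a known source of Igf1. The sum was 1.96 times as high in WT day 12 replicate 1 as in replicate 2, while Igf1 was at 508 and 479 in these libraries. Between genotypes at day 12, no macrophage marker was called. Adipocyte markers rose too, all 7 tested in Def6-/- and 6 in WT cells. At day 12, 4 of the 7 were called higher in Def6-/- than in WT cells at the study's rule, beside 0.81% of all genes tested. Among them was Adipoq, at 7.39 and 12.8 against 2.30 and 2.51 normalized CPM, and at 0 in all day 0 libraries. Its reads at day 12 were 18 and 30 against 8 and 6, and those of Cfd 8 and 15 against 2 and 1. Adipoq and Cfd passed the filter on low values through Def6-/- day 12 alone. The count of 4 of 7 is therefore no measure of a genotype difference. Pparg was at 15.2 and 18.4 against 15.2 and 22.2, and Cebpa at 167 and 132 against 166 and 142. In this comparison 1 gene of all tested had a limma adjusted p under 0.05. Osteoblast markers, which the label calls for, summed to 36838 to 52236 at day 0 and 96660 to 135085 at day 12. With time, 8 of 13 were higher in WT and 9 in Def6-/- cells. Not all were present at day 0, where Bglap and Bglap2 had 0 reads in all libraries and Ibsp had 2 to 26. At day 12, 2 of the 13 were called higher in Def6-/- cells at the study's rule, and 0 at a limma adjusted p under 0.05. Chondrocyte marker sums were 1993 to 3845 at day 0 and 1134 to 1605 at day 12, with 1 of 5 tested higher and 1 lower with time in WT cells and 2 and 2 in Def6-/- cells. Those of pericytes and smooth muscle were 4895 to 8720 at day 0 and 2093 to 2187 at day 12, with 1 of 6 tested higher and 2 lower in each genotype. Most of each of these sums was 1 gene. In the chondrocyte sum, Col2a1 was at 1805 to 3571 at day 0 and 650 to 1016 at day 12. In the other, Acta2 was at 4280 to 8316 and 1536 to 1704. The chondrocyte marker Comp instead rose in WT cells, from 20.9 and 24.0 to 331 and 388. The fall of the chondrocyte and pericyte sums is therefore no measure of these cell types. Endothelial and skeletal muscle markers were near 0, with sums of at most 28.3 and 14.3. The part of these cells in the members' changes was not tested.

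The genes whose log2 level ran most like that of Igf1 over the 8 libraries were Vegfb (Pearson r = 0.998), Tmtc1 (0.997) and Nlrx1 (0.995), and 484 genes had r above 0.95. All 8 libraries share the split by day, which such values mostly follow. For Igf2 they were Spty2d1 (0.973), Lrba (0.964) and Ddi2 (0.957), with 5 genes above 0.95. These are descriptions over 8 libraries, without a test.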

How the data were processed

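The labels and the study's methods state that poly-A RNA was sequenced from 8 libraries, 2 for each of 4 groups, and that reads were aligned to mm10 with HISAT2 and counted with HTSeq. The submitters' processing notes also name fastp and edgeR. Versions and the annotation are not given in the sources used here. The authors deposited CPM values relative to all HTSeq reads, including the 5 rows outside genes, which were left out here. Of 114821 positive values, 99.957% were whole reads within 0.01 of a read, so depth is known. The 49 exceptions lie in 9 genes, none a member.

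CPM were rescaled to reads on genes with TMM factors and tested as log2(CPM + 1) with limma 3.58.1 (lmFit, eBayes with a trend), with 4 group means over all 8 libraries, in R 4.3.3. A gene was kept where 1 group or more had a mean of 1 deposited CPM or above. p-values were adjusted by Benjamini-Hochberg over 12348 genes. Time comparisons used an adjusted p under 0.05 and genotype comparisons and the interaction the study's rule, an unadjusted p under 0.05 and over 1.2-fold. Alternatives were edgeR 4.0.16 and DESeq2 1.42.0 with the recovered reads, other scalings, a pseudocount of 0.1, no filter, fits of 2 groups, a replicate block and leaving out each library. The fit was tested on simulated data with the same dispersion (spread beyond counting noise) for all genes. That simulation had no library that stood apart and no effect of gene length, so it does not cover WT day 0 replicate 1. All 10 members, up to 6 genes of a list with the smallest p per time comparison and up to 3 per genotype comparison, and the 3 genes most like each ligand were to be named. Not every gene under this rule is given. Hras, Irs1, Pappa2, Runx2 and Adipoq were named after their values were seen. The members and lists were chosen with earlier results of these data known. Exon lengths came from GENCODE M21.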

Additional observations from a re-analysis of the deposited data

Results flagged for a closer look

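Sh2b2, an adaptor of insulin and IGF receptors, was called for the interaction of genotype and day at -1.27 on the log2 scale. Its limma unadjusted p was 0.0449 and its adjusted p 0.9998. Of all genes tested, 0.421% were called in this direction. It was at 1.97 and 3.53 normalized CPM in WT day 0, 10.6 and 9.63 in WT day 12, 7.15 and 4.77 in Def6-/- day 0, and 10.3 and 5.55 in Def6-/- day 12 libraries. This value rests on 5 to 37 reads per library and was called in 6 of its 15 alternatives. It was not called by edgeR or DESeq2 on recovered reads.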

How the results depend on the processing

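Each of the 5 time changes called in WT cells kept its call in all 16 alternatives, as did those in Def6-/- cells except Igfbp5, with 15 of 16. The genotype calls at day 0 were kept in 7 of 16 (Igfbp2) and 14 of 16 (Igfbp3). The number of members called between genotypes at day 12 went from 0 to 3 when the groups compared were fitted alone. That of all genes tested went from 173 to 554. At day 0 the number called was 2 with all libraries, 1 with CPM as deposited and 1 without the filter. It was 0 with the groups compared fitted alone. Over all genes tested these 4 fits called 284, 191, 424 and 100. The number of members called at day 0 and for the interaction also changed when a library was left out. The cause was not tested. The labels give nothing that samples with the same replicate number share beyond that number. Correlations of their deviations across genes ran from 0.0023 to 0.327, the highest between the WT and Def6-/- day 0 groups. Whether they share a batch was not tested. With the replicate block, 6 members were called with time in Def6-/- cells (Igf2r added), 5 in WT cells, 0 between genotypes at day 12, 2 at day 0 and 0 for the interaction.

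With CPM as deposited, uncalled values changed sign for Igf1 (0.045) and Igfbp6 (0.045) between genotypes at day 12 and for Igf1 (0.13) at day 0, where edgeR gave 0.060 and DESeq2 0.062. Small log2 differences that changed sign when single libraries were left out were, with time in WT cells, Igf2 (-0.12 to 0.43), Igfbp2 (-0.22 to 0.027). They were, with time in Def6-/- cells, Igfbp2 (-0.084 to 0.50). They were, between genotypes at day 12, Igf1 (-0.11 to 0.051), Igf1r (-0.0039 to 0.15), Igf2 (-0.15 to 0.20), Igf2r (-0.083 to 0.12), Igfbp4 (-0.12 to 0.14), Igfbp6 (-0.31 to 0.27). They were, between genotypes at day 0, Igf1 (-0.60 to 0.57), Igf1r (-0.018 to 0.56), Igf2 (-0.19 to 0.35), Igf2r (-0.18 to 1.06), Igfbp5 (-0.26 to 1.45), Igfbp7 (-1.35 to 0.66). They were, for the interaction, Igf1 (-0.60 to 0.57), Igf1r (-0.49 to 0.090), Igf2 (-0.33 to 0.22), Igf2r (-1.04 to 0.20), Igfbp3 (-0.67 to 0.15), Igfbp5 (-1.10 to 0.61), Igfbp6 (-0.057 to 0.52), Igfbp7 (-0.38 to 1.63). With the longest transcript as length, the Igf1 share of ligand CPM per kb was 3.37% at WT day 0 and 12.6% at Def6-/- day 12, and the summed CPM per kb of the binding proteins was 3357 and 4081 in WT and 2385 and 3840 in Def6-/- cells at day 0 and day 12. From CPM as deposited these sums were 813, 1021, 651 and 1025, against 2587, 3230, 1850 and 3093.

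Alternatives for the 5 lists were chosen after seeing the data: of the list genes called with time, 9 of 29 in WT and 10 of 24 in Def6-/- cells kept their call in every alternative, and of those called between genotypes or for the interaction, 0. The lowest count of a member in a library was 54 reads (Igfbp3 at WT day 0).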
